A study of Homo sapiens with 8 samples.

Results

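The genes described here are 10 regulators of endoderm and mesoderm, namely T (brachyury, listed as TBXT by RefSeq), EOMES, MIXL1, SOX17, GSC, MESP1, CER1, HHEX, LHX1 and NODAL. They were followed through 6 lists of genomic regions in which the authors name one or more genes for most regions. A region was taken when its names included 1 of the 10 genes, which gave 56 of the 327994 regions, 47 of them captured and 9 control. The authors write a gene's name without a mark where the region overlaps it and with a plus or minus mark where the gene is a neighbour, and 17 of the 56 regions were named as overlapping the gene and 39 as flanking it. Over all matched protein-coding names, 91.31% of unmarked names belonged to a gene under the region, and 97.98% of names with a plus mark lay at higher coordinates, so the mark gives the side and not the strand.

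The regions come from DNA pulled down by RNA. RNA-free genomic DNA of H1, a human embryonic stem cell line, was sonicated to fragments of 200 to 300 bp, and 6 to 7 µg of it was incubated with 20 pmol of a biotinylated RNA oligo. The buffer held 50 mM KCl and 5 mM MgCl2, and the mixture stood at 37 °C for 1 h. DNA held by the oligo was recovered on streptavidin beads, released by RNase and sequenced. The 4 groups had 2 libraries each, 8 in all, from separate experiments per the labels. They were the oligo GATA6-AS TFR1, from the transcript antisense to GATA6; the oligos MEG3 TFR1 and MEG3 TFR2, both from the imprinted long noncoding RNA MEG3; and the no-oligo control, the same DNA taken through the same steps without RNA. Each of the 3 oligos was compared with the same no-oligo libraries, so the comparisons are not independent of each other. Captured regions had more signal with the oligo and control regions more signal without it. The DNA was naked and was mixed with a synthetic RNA in a tube, so the lists say where DNA was recovered and nothing about chromatin or expression in the cells.

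NODAL is a secreted ligand of the TGF-beta family that acts through activin receptors, the co-receptor TDGF1 and the transcription factors SMAD2 and SMAD3 to set up the primitive streak, the embryonic site from which mesoderm and endoderm arise. T, EOMES and MIXL1 are transcription factors switched on in the streak, GSC and LHX1 mark its organizer, MESP1 marks the first cardiac mesoderm, and SOX17 and HHEX belong to the endoderm. CER1 is a secreted inhibitor of Nodal. Embryonic stem cells are pluripotent and can be driven to form all of these lineages.

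RefSeq promoter windows, which run from 250 bases before an annotated start to 50 bases after it (GRCh38.p14), were available for 7 of the 10 genes. There were 8 windows because T has a pair of starts. Captured regions reached into 4 of them, at both starts of T and at EOMES and MIXL1. The 250 bases before the start are printed below for these 4 windows, since they show how much of each promoter was recovered, in the direction of transcription, with capitals for bases inside a captured region. The outer start of T, chr6:166168656-166168905 on the minus strand, lay wholly within a MEG3 TFR1 region. The inner start of T, chr6:166167852-166168101 on the minus strand, shared 150 bases with a GATA6-AS TFR1 region. The start of MIXL1, chr1:226223414-226223663 on the plus strand, shared 87 bases with a GATA6-AS TFR1 region. The start of EOMES, chr3:27722324-27722573 on the minus strand, shared 123 bases with a GATA6-AS TFR1 region, and these hold a run of 20 purines, GAGGAAGGAAAAGGAGAGGG (chr3:27722542-27722561).
T outer start: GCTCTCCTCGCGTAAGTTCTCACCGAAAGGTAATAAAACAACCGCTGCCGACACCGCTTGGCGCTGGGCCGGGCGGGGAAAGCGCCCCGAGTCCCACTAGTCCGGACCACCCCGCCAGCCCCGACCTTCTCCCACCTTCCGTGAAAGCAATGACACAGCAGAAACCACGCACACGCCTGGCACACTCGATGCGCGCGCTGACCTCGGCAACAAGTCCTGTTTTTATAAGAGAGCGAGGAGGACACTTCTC
T inner start: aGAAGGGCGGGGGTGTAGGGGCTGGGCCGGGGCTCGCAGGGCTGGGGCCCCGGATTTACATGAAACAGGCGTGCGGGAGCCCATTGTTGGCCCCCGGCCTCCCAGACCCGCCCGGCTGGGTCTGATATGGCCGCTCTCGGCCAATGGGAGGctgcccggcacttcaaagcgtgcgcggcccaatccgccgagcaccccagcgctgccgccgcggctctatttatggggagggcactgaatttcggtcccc
MIXL1 start: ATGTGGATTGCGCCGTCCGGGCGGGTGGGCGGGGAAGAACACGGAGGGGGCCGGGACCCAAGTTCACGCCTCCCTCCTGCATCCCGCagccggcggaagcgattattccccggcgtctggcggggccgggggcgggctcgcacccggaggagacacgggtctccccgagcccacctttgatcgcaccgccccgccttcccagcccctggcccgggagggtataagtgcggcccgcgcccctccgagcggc
EOMES start: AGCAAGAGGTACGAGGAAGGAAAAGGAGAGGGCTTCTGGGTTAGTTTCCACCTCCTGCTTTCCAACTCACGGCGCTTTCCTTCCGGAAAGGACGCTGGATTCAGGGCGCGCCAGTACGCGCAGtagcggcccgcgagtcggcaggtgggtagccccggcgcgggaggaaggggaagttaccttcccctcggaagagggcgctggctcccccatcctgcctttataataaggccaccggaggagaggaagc

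The GATA6-AS TFR1 lists held 104786 captured and 36330 control regions, the MEG3 TFR1 lists 89739 and 12649, and the MEG3 TFR2 lists 73546 and 10944. Each region has 1 log2 ratio of oligo to no-oligo signal, made by the authors, with a median of 1.34, 1.41 and 1.44 in the 3 captured lists in that order, and of -1.57, -1.53 and -1.46 in the control lists. Single libraries have no value in the lists and read totals are not given, so no ratio below has an error, no difference between genes or oligos could be tested, and the depth is unknown. Ratios are therefore given with their percentile by size within their own list.

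GATA6-AS TFR1, which had the longest lists, gave the most regions naming these genes. There were 21 captured regions of 104786 (9 overlapping, 12 flanking) and 7 control regions of 36330 (3 overlapping, 4 flanking) with GATA6-AS TFR1. MEG3 TFR1 had 13 captured regions of 89739 (3 overlapping, 10 flanking) and 1 flanking control region of 12649. MEG3 TFR2 had 13 captured regions of 73546 (2 overlapping, 11 flanking) and 1 flanking control region of 10944. The part of list length in these counts was not tested. The captured regions had median log2 ratios of 1.23, 1.39 and 1.54 in the same order of oligos, beside list medians of 1.34, 1.41 and 1.44. These medians pool overlapping regions with flanking ones, which lay at median distances of 50779, 73504 and 79235 bp from the gene. Overlapping regions alone had medians of 1.23, 1.30 and 1.20, and flanking regions 1.25, 1.44 and 1.65. None of these differences could be tested.

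Named as overlapped by a captured region were 4 of the 10 genes with GATA6-AS TFR1 (T, EOMES, LHX1 and NODAL), against 50.5% of the 19126 autosomal protein-coding genes. With MEG3 TFR1 there were 2 of 10 (LHX1 and NODAL), against 43.8%, and with MEG3 TFR2 the same pair, against 42.1%. In the control lists 2 of 10 (GSC and NODAL) were named as overlapped with GATA6-AS TFR1, against 31.8% of all genes, and none with MEG3 TFR1 or MEG3 TFR2, against 19.1% and 17.5%. The 10 genes are short, with a median length of 6227 bp (1891 to 18804 bp) against 24476.5 bp for all autosomal protein-coding genes, and a shorter gene offers less room for a region. The part of length in these shares was not tested.

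**Figure D1:**
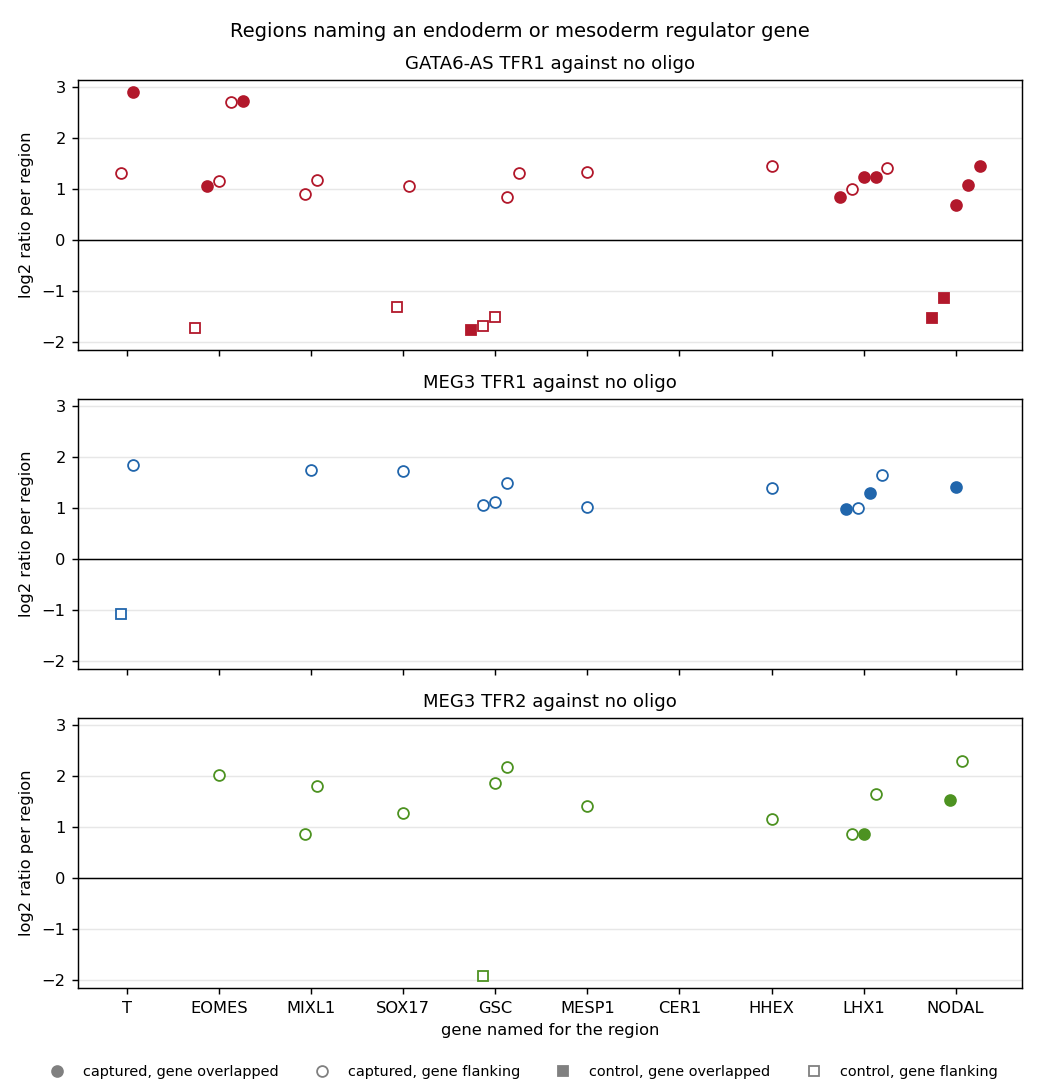
Log2 ratio of oligo to no-oligo signal (vertical axis) of the 56 regions that name 1 of the 10 genes (horizontal axis), with a panel for each oligo. Circles are captured and squares control regions, filled where the gene is overlapped and open where it flanks the region. T and EOMES hold the 3 highest GATA6-AS TFR1 values, between 2.72 and 2.91, and CER1 has no region in any panel.

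The authors' names and the RefSeq positions differed for some regions on the genes. Set against the RefSeq gene ends, 27 captured regions lay on 7 of the genes, and 12 of these 27, 9 with MEG3 TFR1 and 3 with MEG3 TFR2, did not name that gene. Of the 12, 6 on the MESP1 model named WDR93, which lies under them too, and 6 named no protein-coding gene under them. Of all captured regions lying on an autosomal protein-coding gene, 25.85% for the GATA6-AS TFR1 list, 27.22% for MEG3 TFR1 and 26.92% for MEG3 TFR2 named none of the protein-coding genes under them. Regions were therefore also placed by position.

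By position, 9 of 10 genes had a captured region on them or within 5 kb with GATA6-AS TFR1 (22 regions, all genes but CER1), against 79.4% of all genes. With MEG3 TFR1 there were 6 of 10 (17 regions on or near T, MIXL1, SOX17, MESP1, LHX1 and NODAL), against 74.0%. With MEG3 TFR2 there were 3 of 10 (8 regions on or near MESP1, LHX1 and NODAL), against 70.7%. Control regions lay on or within 5 kb of 4 of 10 genes (EOMES, GSC, LHX1 and NODAL) with GATA6-AS TFR1, against 49.0%, and of none with MEG3 TFR1 or MEG3 TFR2, against 25.9% and 24.1%. None of these shares was tested, and with 10 genes each gene moves a share by a large step.

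**Figure D2:**
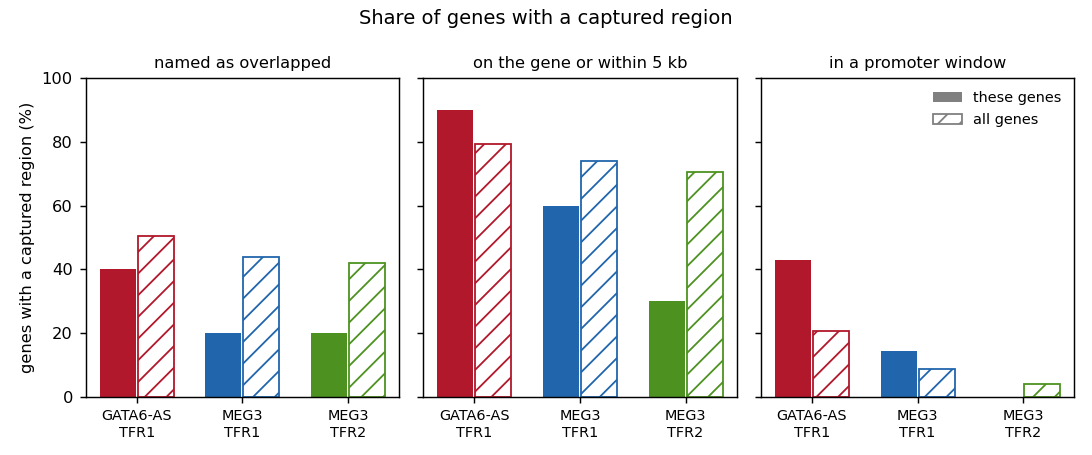
Share of genes with a captured region, in percent, for the genes described here (filled bars) beside all autosomal protein-coding genes (hatched bars), for each oligo. The panels use the authors' overlapped names, position on the gene or within 5 kb, and promoter windows; the promoter panel covers 7 of the 10 genes.

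Within promoter windows, 3 of 7 genes (T, EOMES and MIXL1) had a GATA6-AS TFR1 captured region, against 20.5% of the 15101 genes with a window. With MEG3 TFR1 it was 1 of 7 (T), against 8.73%, and with MEG3 TFR2 none, against 4.11%. The windows of NODAL, CER1, GSC and HHEX held no captured region.

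**Figure D3:**
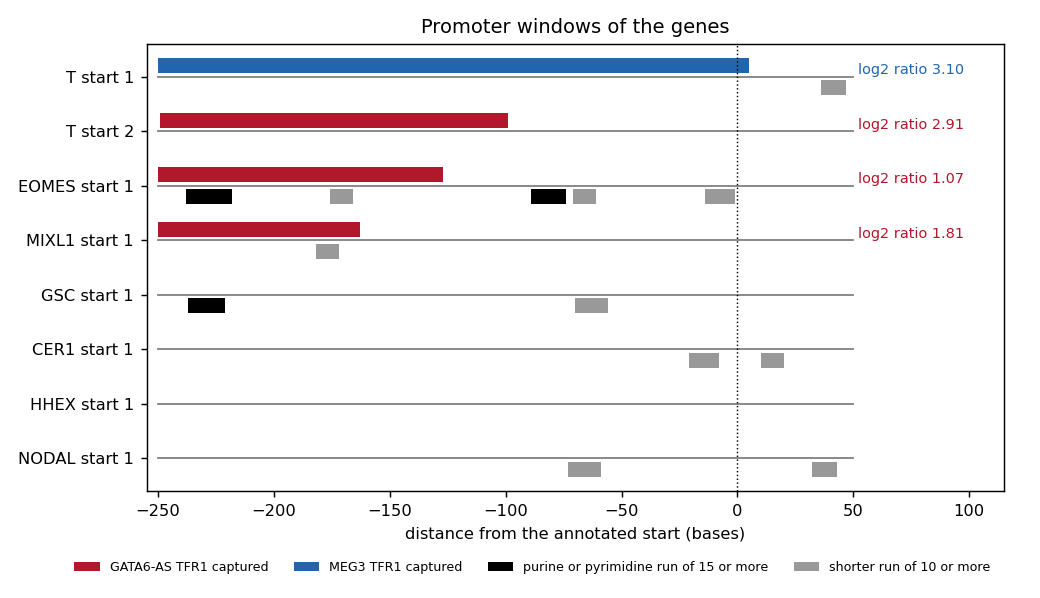
Captured regions (coloured bars above each line) and runs of purines or pyrimidines (black, 15 or more bases; grey, shorter runs of 10 or more) in the 8 promoter windows, by distance in bases from the annotated start (dotted line). For T, start 1 is the outer and start 2 the inner one. The MEG3 TFR1 region at the outer start of T crosses the start with a log2 ratio of 3.10, and the 3 GATA6-AS TFR1 regions end before it.

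NODAL, the ligand, had regions with every oligo. With GATA6-AS TFR1, 3 captured regions lay inside the gene (chr10:70431936-70447951, minus strand), with log2 ratios of 1.45 at 70435051 to 70435400, 1.08 at 70436401 to 70436850 and 0.69 at 70442251 to 70442800. The last of these lay upstream of the start in the promoter table and stood at percentile 0.67 of its list, near the low end of what the authors called. The same comparison also put 2 control regions inside NODAL, with log2 ratios of -1.14 at 70438651 to 70438950 and -1.55 at 70445851 to 70446150, so captured and control stretches interleaved along the gene. With MEG3 TFR2 a region at 70436501 to 70436900 had a log2 ratio of 1.54, and shared 350 bp with the GATA6-AS TFR1 region of 1.08. With MEG3 TFR1 the only region named NODAL as overlapped (log2 ratio 1.42) lay 150 bp beyond the upper end of the RefSeq gene. The region of highest ratio naming NODAL, 2.29 with MEG3 TFR2, was a flanking one 90986 bp away.

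CER1, the secreted inhibitor, was named by no region in any of the 6 lists. The nearest captured region with GATA6-AS TFR1 lay 24276 bp from the gene (log2 ratio 2.31). The nearest MEG3 TFR1 region was 120518 bp and the nearest MEG3 TFR2 region 29668 bp away. The nearest control regions lay 41768, 148226 and 86118 bp away in the same order. Within 100 kb of CER1 there were 5, 0 and 2 captured regions.

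T, the T-box factor that marks the streak and nascent mesoderm, had captured regions of high ratio at both annotated starts. The GATA6-AS TFR1 region at chr6:166167951-166168100 covered the window of the inner start from base -249 to -100, with a log2 ratio of 2.91 (7.5-fold) at percentile 99.14 of its list. The MEG3 TFR1 region at chr6:166168651-166168950 covered the outer start from -250 to 4, with a log2 ratio of 3.10 (8.56-fold) at percentile 99.04. That MEG3 TFR1 region does not carry the name T in the authors' column, where the region named T for this oligo is a flanking one of 1.84, 43556 bp away. Both regions also overlapped LNCDAT, a long noncoding RNA gene of RefSeq, so these values cannot be given to T alone. A second MEG3 TFR1 region inside T, at 166163301 to 166163500, had a log2 ratio of 1.52. With MEG3 TFR2 the nearest captured region was 72046 bp from T. The 1 control region naming T, with MEG3 TFR1, had a log2 ratio of -1.09 and lay 34446 bp away.

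EOMES, a T-box factor needed for endoderm, had captured regions on it with GATA6-AS TFR1 and with neither MEG3 oligo. The region at chr3:27719901-27720300, inside the gene, had a log2 ratio of 2.73 (6.63-fold) at percentile 98.6. The region at chr3:27722451-27722800, over the upper end of the gene and bases -250 to -128 of the promoter window, had a log2 ratio of 1.07 (2.10-fold) at percentile 21.08, so the high ratio sat in the gene body and not at the start. A flanking GATA6-AS TFR1 region 6588 bp beyond the gene had a log2 ratio of 2.72, and a MEG3 TFR2 region 7638 bp beyond it had 2.03. On the other side, a GATA6-AS TFR1 captured region 2853 bp away had 0.62 and a control region 4003 bp away had -1.74. With MEG3 TFR1 the nearest captured region was 72503 bp away.

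MIXL1, a homeobox factor of the streak, was named as overlapped by no region. By position a GATA6-AS TFR1 region of 650 bp ended 164 bp before the gene, with a log2 ratio of 1.81 (3.51-fold) at percentile 83.35, and covered bases -250 to -164 of the promoter window. A MEG3 TFR1 region inside the gene, at chr1:226226301-226226650, had a log2 ratio of 1.71. With MEG3 TFR2 the nearest region, 9514 bp away, had 1.18. The regions that do name MIXL1 lay between 15714 and 98814 bp from it, with log2 ratios of 0.86 to 1.81.

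GSC, the organizer homeobox gene, had the most control regions naming it, 3 with GATA6-AS TFR1 and 1 with MEG3 TFR2. A GATA6-AS TFR1 control region of 150 bp with a log2 ratio of -1.77 lay 788 bp beyond the gene's upper end, on the side of its start, and overlapped the divergent transcript GSC-DT. Other control regions near GSC had -1.69 (9338 bp away), -1.71 (17973 bp) and -2.51 (14638 bp) with GATA6-AS TFR1. At the last place MEG3 TFR2 also had a control region, of -1.64, and on the other side of the gene both had one, of -1.53 with GATA6-AS TFR1 (33023 bp away) and -1.92 with MEG3 TFR2 (33073 bp). Because the no-oligo libraries are the same in these comparisons, the paired places are not separate observations of the no-oligo signal. Captured regions near GSC had log2 ratios of 1.04 (2423 bp), 1.32 (2638 bp) and 1.89 (11673 bp) with GATA6-AS TFR1 and 2.45 (9038 bp) with MEG3 TFR2, and no captured region lay on the gene. The farther captured regions that name GSC, 25638 to 86423 bp away, had 0.84 with GATA6-AS TFR1. Those of MEG3 TFR1 had 1.07, 1.12 and 1.5, and those of MEG3 TFR2 had 1.87 and 2.19.

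LHX1, a LIM homeobox factor, had captured regions inside it with all 3 oligos, and their ratios were low. They were 0.85 and 1.23 for GATA6-AS TFR1, then 0.99 and 1.30 for MEG3 TFR1, then 0.87 for MEG3 TFR2, at percentiles from 2.01 to 39.64 of their lists. The GATA6-AS TFR1 region of 0.85, at chr17:36939551-36940150, shared 150 bp with the MEG3 TFR1 region of 1.30 at chr17:36940001-36940250. Higher values lay outside the gene, along the divergent transcript LHX1-DT. There, 4985 to 5385 bp from LHX1, the GATA6-AS TFR1 region starting at 36931451 had a log2 ratio of 1.44, and the MEG3 TFR1 and MEG3 TFR2 regions starting at 36931201 had 2.31 and 2.18 in that order. Closer to the gene along LHX1-DT, GATA6-AS TFR1 had a region of 1.71 at 1085 bp. Its region of 1.23 at 285 bp is named as overlapping LHX1. On the opposite side of LHX1, in AATF, MEG3 TFR1 had a region of 2.59 and GATA6-AS TFR1 control regions of -1.77 and -1.26. Flanking regions naming LHX1 lay 78335 to 97335 bp away, with 1.00 and 1.42 for GATA6-AS TFR1, then 1.64 and 1.00 for MEG3 TFR1, then 1.65 and 0.86 for MEG3 TFR2.

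MESP1, the early cardiac mesoderm factor, has a long RefSeq model (chr15:89732446-89751249) that runs into WDR93, and no region on it is named as overlapping MESP1. The 3 regions named as flanked by MESP1, which their plus mark places at higher coordinates, lay on the model and followed each other: log2 ratio 1.34 at 89743651 to 89744350 with GATA6-AS TFR1, 1.41 at 89744201 to 89744650 with MEG3 TFR2 and 1.01 at 89744601 to 89745250 with MEG3 TFR1. In the stretch shared with WDR93, MEG3 TFR1 had 5 more regions, of 1.17 to 2.29. MEG3 TFR2 had 3 further regions on the model, of 1.38, 1.83 and 1.55. Which of the overlapping genes such a region belongs to cannot be told apart from position.

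SOX17, the HMG-box factor of endoderm, was named only by flanking regions. By position a MEG3 TFR1 region inside the gene had a log2 ratio of 1.57, and a GATA6-AS TFR1 region 2935 bp away had 2.27 at percentile 95.27. From 13959 to 14409 bp beyond the gene, neighbouring regions had 1.13 (GATA6-AS TFR1), then 1.47 (MEG3 TFR1), then 2.10 (MEG3 TFR2). The MEG3 TFR1 region overlapped each of the others, which shared no base with each other. The 1 control region naming SOX17, with GATA6-AS TFR1, had -1.32 and lay 95085 bp away. The captured regions naming SOX17 lay 61435 to 95535 bp away, with 1.05 (GATA6-AS TFR1), then 1.72 (MEG3 TFR1), then 1.29 (MEG3 TFR2).

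HHEX, a homeobox gene of the anterior endoderm and liver bud, had no region on it. With GATA6-AS TFR1 a region of 1.11 lay 504 bp beyond its end, with MEG3 TFR1 one of 1.39 lay 5154 bp away, and with MEG3 TFR2 one of 1.17 lay 16305 bp away. The GATA6-AS TFR1 region the authors name for HHEX lay 53005 bp away, inside KIF11, with a log2 ratio of 1.45.

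**Figure D4:**
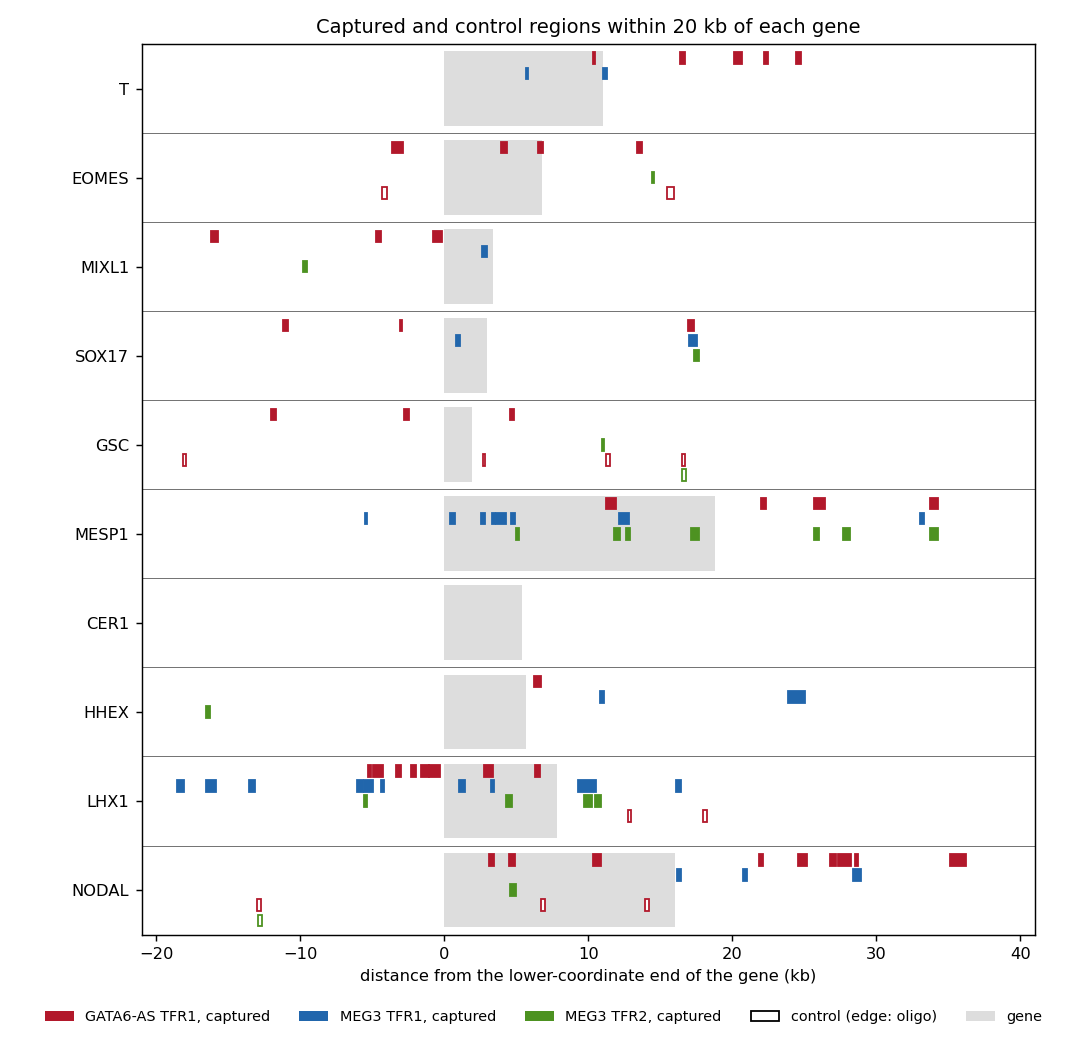
Captured (filled) and control (open) regions within 20 kb of each of the 10 genes, by distance in kb from the lower-coordinate end of the gene (grey). Colours give the oligo, and control regions stand in the lowest lanes of each gene. Captured regions are densest at MESP1, LHX1 and NODAL, and none of either kind falls within 20 kb of CER1. Control regions are most numerous at GSC and NODAL, and none comes from MEG3 TFR1.

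The surroundings of the genes varied widely. Within 100 kb the 10 genes had a median of 10.0 captured regions (GATA6-AS TFR1), then 8.5 (MEG3 TFR1), then 6.5 (MEG3 TFR2), against 14.0, 12.0 and 10.0 for all autosomal protein-coding genes. The medians of control regions were 3.5, 0.0 and 1.0 for the 10 genes, against 4.0, 1.0 and 1.0 for all. MESP1, LHX1 and NODAL lay above the all-gene median with every oligo, reaching 36 GATA6-AS TFR1 regions at NODAL, 30 MEG3 TFR1 regions at LHX1 and 21 MEG3 TFR2 regions at NODAL. T, EOMES, MIXL1, SOX17, CER1 and HHEX lay below it with every oligo, and EOMES had 1 region with MEG3 TFR1.

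**Figure D5:**
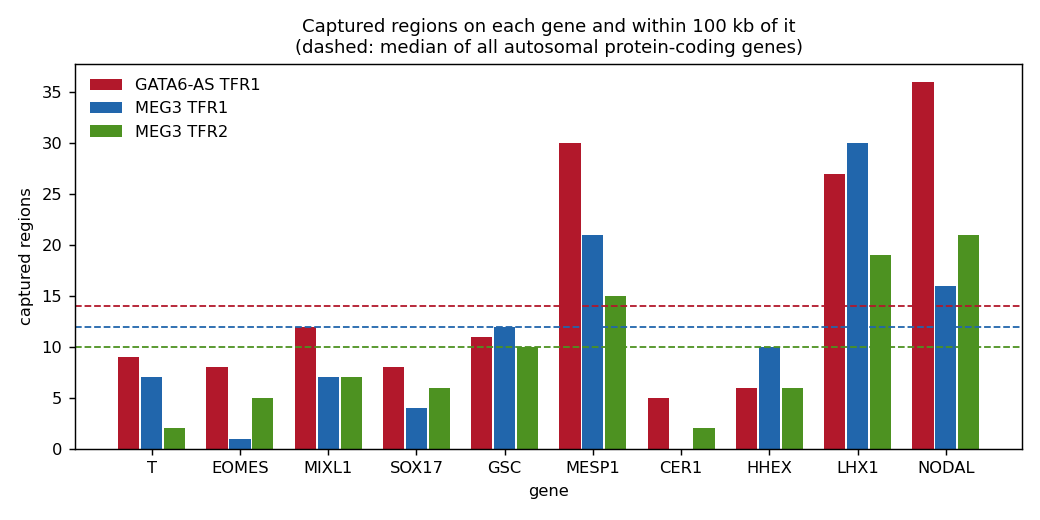
Number of captured regions on each gene and within 100 kb of it (bars, by oligo), with the median over all autosomal protein-coding genes as dashed lines. MESP1, LHX1 and NODAL stand above all 3 lines, and CER1 has 5, 0 and 2 regions.

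An RNA that pairs with a DNA duplex in a triplex lies along a purine-rich strand, so the promoter windows were searched for runs of 15 or more purines or pyrimidines, and for GAGAGAGA or TCTCTCTC and GGAGGAGG or CCTCCTCC, on both strands. A GA or GGA repeat can itself be part of a purine run. Runs of 15 or more were in 2 of the 8 windows, EOMES and GSC, against 20.43% of the 21156 windows of autosomal protein-coding genes. The share was 27.93% of windows holding a GATA6-AS TFR1 captured region, 38.06% for MEG3 TFR1, 33.92% for MEG3 TFR2 and 17.98% of windows with no captured region. The 20-base run of EOMES printed above, at -238 to -219, lay wholly in its GATA6-AS TFR1 region of log2 ratio 1.07. A further run of 15 purines at EOMES, at -89 to -75, lay in no captured region. The 16-base run of GSC, at -237 to -222, lay in none either. The windows of T, which had the highest ratios, held no run longer than 11 and 8 bases. The GA repeat was in none of the 8 windows, against 3.11% of all windows, and the GGA repeat in 2, GSC and NODAL, against 12.75%. The captured DNA outside these windows was not searched.

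Among 22 genes of the Nodal pathway, 11 were named as overlapped by a GATA6-AS TFR1 captured region, 12 by one of MEG3 TFR1 and 10 by one of MEG3 TFR2, beside the shares of all genes of 50.5%, 43.8% and 42.1%. Control regions named 5, 4 and 4 of the 22, beside 31.8%, 19.1% and 17.5% of all genes. By position on the gene or within 5 kb, 20, 15 and 18 of the 22 had a captured region. The all-gene shares by position were 79.4%, 74.0% and 70.7%. Control regions lay there for 11, 6 and 4 of the 22, beside 49.0%, 25.9% and 24.1%. The genes of highest ratio were GDF1, a Nodal-related ligand, at 2.56 and PCSK6, a protease that processes Nodal, at 2.13 with GATA6-AS TFR1. With MEG3 TFR1 they were PMEPA1, an inhibitor of SMAD signalling, at 2.95 and LEFTY1, a Nodal inhibitor, at 2.60, and with MEG3 TFR2 SMAD3, at 2.86, and PCSK6, at 2.59. Each is the highest over the regions naming the gene. In the order given, these numbered 11 and 19, then 5 and 2, then 12 and 20. The regions named TDGF1 by the authors (highest 2.08 with GATA6-AS TFR1) and LEFTY1 with MEG3 TFR1 lay over 5 kb from those genes in RefSeq, where TDGF1 is listed as CRIPTO. On PCSK6 or within 5 kb lay 17 GATA6-AS TFR1 and 16 MEG3 TFR2 regions, so some of the 19 and 20 naming it were farther away. The median over named genes of their highest log2 ratio was 1.73, 1.86 and 1.77, against 1.78, 1.82 and 1.79 for all named genes.

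Among 40 other genes of the streak and its lineages, 16 were named as overlapped by a captured region and 4 by a control region with GATA6-AS TFR1. The counts were 12 and 3 with MEG3 TFR1 and 11 and 3 with MEG3 TFR2, beside captured shares of all genes of 50.5%, 43.8% and 42.1% and control shares of 31.8%, 19.1% and 17.5% in the same order. By name the list's shares were lower in each of these, with no test. Placed by position on the gene or within 5 kb, 36, 30 and 28 of the 40 had a captured region. All-gene shares by position were 79.4%, 74.0% and 70.7%. The captured shares were thus not lower with GATA6-AS TFR1 or MEG3 TFR1, and close with MEG3 TFR2. Control regions lay there for 14, 7 and 6 of the 40, beside 49.0%, 25.9% and 24.1%. WNT3, the Wnt ligand that induces the streak in mouse embryos, stood among the 3 highest by name with every oligo, at 3.86, 2.11 and 2.32. These are the highest of 23, 12 and 9 regions naming WNT3, while 21, 9 and 7 lay on it or within 5 kb. The part of region number in such highest values was not tested. EVX1, a homeobox gene of the posterior streak, had 3.32 with GATA6-AS TFR1. The endoderm and heart factor GATA4 had 2.42 with GATA6-AS TFR1 and 2.20 with MEG3 TFR1, and the liver factor HNF4A had 2.48 with MEG3 TFR2. The median over named genes of their highest log2 ratio was 1.74, 1.65 and 1.49, below the 1.78, 1.82 and 1.79 of all named genes, with no test.

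Across the 6 lists, with the largest ratio in size per list and 0 where a gene was not named as overlapped, 23137 names were set against NODAL and LHX1. The nearest to NODAL were LEPR, at a Euclidean distance of 0.13, and CD2AP, at 0.18. The nearest to LHX1 were RP11-445F12.2, at 0.0, which is named for the same regions, and SLC25A25, at 0.17.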

How the data were processed

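DNA captured by 3 RNA oligos, or recovered without oligo, was sequenced from 8 libraries. The submitters' processing notes name BWA 0.7.15-r1140, FastQC and the build hg38. How regions were called and how the libraries were scaled is not given in the sources used here. An input sample that the design mentions was not analysed here. The 6 deposited lists hold one log2 ratio per region, as the authors made it. The log2 scale was inferred: raising 2 to each of the 56 values described gave a quotient of integers, the divisor being 400 or less, within 1e-08. Lists hold no value per library, so the depth is unknown and neither replicate spread nor a test could be computed.

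Names were split at colons, plus and minus marks removed, and T and TBXT joined. Positions are counted from 1, overlap is at least 1 bp, and genes and promoter sequences came from RefSeq tables (GRCh38.p14). All overlapped members were named, with up to 3 genes per wider list and oligo by highest log2 ratio. The genes, the wider lists and the motifs were chosen with earlier results of these data known. Alternatives were regions past 1.5 in absolute log2 ratio, the 0.5 of each list with the largest ratios, joining within 200 bp, flanking names, position within 5 kb or 1 kb of gene ends, stricter or midpoint overlap, and other run lengths. Scripts (Python 3.11.15, numpy 2.4.6, pandas 2.3.3, matplotlib 3.10.9) were tested on simulated lists with planted regions.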

Additional observations from a re-analysis of the deposited data

How the results depend on the processing

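No paired analysis was possible because single libraries have no values in the lists, and for the same reason no library could be left out. Of 62 recomputed values, 28 stayed within 1.5 times the value reported and 34 did not. The counts of regions naming 1 of the 10 genes as overlapped (captured 9, 3 and 2, control 3, 0 and 0, in the order GATA6-AS TFR1, then MEG3 TFR1, then MEG3 TFR2) are small, so single regions move them. Past 1.5 in absolute log2 ratio, the captured counts were 2, 0 and 1 regions and 2, 0 and 1 genes (4, 2 and 2 as deposited). In the 0.5 of each list with the largest ratios they were 3, 1 and 1 regions, with 1 gene for MEG3 TFR1 and for MEG3 TFR2, and 1 GATA6-AS TFR1 control region; both settings keep fewer regions by construction. With flanking names they were 21, 13 and 13 regions and 9, 8 and 8 genes, and control regions 7, 1 and 1. By position within 5 kb they were 22, 17 and 8 regions, with 9 GATA6-AS TFR1 genes, 6 MEG3 TFR1 genes and 5 GATA6-AS TFR1 control regions; both are wider by construction. Within 1 kb of a gene end they were 5 genes with MEG3 TFR1 and 0 with MEG3 TFR2, and the cause was not tested. Joining regions within 200 bp changed no count. Regions of GATA6-AS TFR1 and MEG3 TFR2 that overlapped numbered 2, and 1 when at least 0.5 of the shorter one had to be shared. Of the streak lineage genes, 7 with MEG3 TFR1 and 5 with MEG3 TFR2 had a captured region of at least 1.5 (12 and 11 as deposited). Shares of all genes are not available for flanking names, for the limits on ratio or within 1 kb of a gene end. The gene counts under those settings therefore cannot be read as high or low. Promoter windows with a purine run numbered 6 of 8 at 10 or more bases, beside 71.93% of all windows, and 1 at 20 or more, beside 6.41%. At 15 or more bases there were 2, beside 20.43%.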
